A study of Mus musculus with 18 samples.

Results

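The angiotensin and endothelin system was followed as 8 genes, chosen by their roles as precursors, enzymes and receptors. These were Agt, Ace, Agtr1a and Agtr2 on the angiotensin side, and Edn1, Ece1, Ednra and Ednrb on the endothelin side. The choice was made with earlier results of these data known. The genes were 8 of the 24419 gene symbols in the table of expression values. The tissue was left ventricular heart muscle, taken from the infarct in ligated mice, of male C57BL/6 mice, 8 weeks old, anaesthetised with sodium pentobarbital. Acute myocardial infarction (AMI) was made by tying off the left anterior descending coronary artery close to its origin. Of 18 mice, 3 each were killed 10 min and 1, 6, 24 and 72 h into the infarct, and 3 were controls, which the labels call control and the study calls sham. The libraries were of polyadenylated RNA from whole tissue, so that fewer cells of a type and less RNA per cell cannot be told apart. Gene levels are FPKM, the number of fragments scaled both by the length of the transcript and by the mapped fragments of the library, so that levels can be set side by side between genes.

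Angiotensinogen, encoded by Agt, is the precursor from which renin releases angiotensin I, and the angiotensin-converting enzyme Ace turns that peptide into angiotensin II. Angiotensin II constricts vessels, promotes cardiac hypertrophy and fibrosis and prompts the adrenal gland to secrete aldosterone through the receptor encoded by Agtr1a, while Agtr2 encodes a second receptor often found to oppose the first. Edn1 encodes the precursor of endothelin-1, which furin-type proteases and then the endothelin-converting enzyme Ece1 cut to the active peptide. Ednra encodes the receptor that mediates constriction in smooth muscle and pericytes and growth responses in cardiomyocytes. Ednrb encodes the receptor that on endothelial cells releases nitric oxide and clears endothelin-1.

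The genes lie apart in the genome. In the GENCODE M21 annotation of GRCm38 (mm10), Agt lies at chr8:124556534-124569706 on the minus strand, Ace at chr11:105967945-105989964 on the plus strand, Agtr1a at chr13:30336441-30382867 on the plus strand and Agtr2 at chrX:21484544-21489164 on the plus strand. Edn1 lies at chr13:42301476-42307990 on the plus strand, Ece1 at chr4:137862237-137965229 on the plus strand, Ednra at chr8:77663031-77724464 on the minus strand and Ednrb at chr14:103814625-103844402 on the minus strand. Exons of 3 of the genes overlap another gene on the opposite strand, by 295 bases for Ace, 35 bases for Edn1 and 91 bases for Ednra. The library kit is not described as keeping strand, so reads in these stretches cannot be assigned to one gene or the other.

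The 250 bases before a RefSeq start site are shown for Agt, Edn1 and Ednrb. These genes rose together at 6 h, and their windows overlap no annotated exon. Ace also rose at 6 h. It has 2 windows, of which the one at its first start site overlaps an exon, and neither is shown. The sequences are RefSeq windows on GRCm38.p6, 5′ to 3′ on the strand of the gene, at chr8:124569707-124569956 for Agt, chr13:42301226-42301475 for Edn1 and chr14:103843702-103843951 for Ednrb. Windows were found for 7 of the 8 genes, the exception being Agtr1a. The Ednrb window lies inside the GENCODE span of the gene given above, so the start site it precedes is within the gene and not at its annotated end. Capitals mark matches to the motifs searched.
Agt: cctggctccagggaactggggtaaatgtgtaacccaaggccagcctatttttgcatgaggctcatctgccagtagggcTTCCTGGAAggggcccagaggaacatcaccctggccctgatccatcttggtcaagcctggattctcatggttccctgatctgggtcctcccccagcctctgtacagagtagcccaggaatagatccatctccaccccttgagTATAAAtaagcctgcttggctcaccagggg
Edn1: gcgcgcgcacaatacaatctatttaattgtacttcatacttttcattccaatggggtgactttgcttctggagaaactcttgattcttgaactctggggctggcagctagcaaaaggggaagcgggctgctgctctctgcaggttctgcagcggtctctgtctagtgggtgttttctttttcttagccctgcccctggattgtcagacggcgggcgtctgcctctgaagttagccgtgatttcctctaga
Ednrb: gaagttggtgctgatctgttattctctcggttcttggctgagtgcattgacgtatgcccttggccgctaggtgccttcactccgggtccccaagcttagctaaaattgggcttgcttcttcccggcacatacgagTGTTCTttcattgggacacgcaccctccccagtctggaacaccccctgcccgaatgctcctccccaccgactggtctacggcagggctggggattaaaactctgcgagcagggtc

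The letters searched for the TATA box were TATAAA, on the strand of the gene alone. Both strands were searched for TGANTCA, the site of AP-1 factors, and for ACGTG, the core of the hypoxia response element. They were also searched for AGATAA, bound by GATA factors, and for the STAT site TTCNNNGAA. The last was AGAACA, the hexamer bound by the glucocorticoid receptor. The Agt window held a TATA box 30 to 25 bases before the start, a match found in 7.59% of 32851 windows, and a STAT match, TTCCTGGAA, 172 to 164 bases before it, a kind found in 7.02% of windows. The Ednrb window held TGTTCT, which is AGAACA on the other strand, 115 to 110 bases before that inner start site. On either strand, AGAACA was present in 16.1% of windows. The Edn1 window held none of these letters. The 3 windows had a G and C content of 55.6%, 50.4% and 56.8%, against a median of 52.4% over all windows. The matches describe these letters and were not tested for binding.

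The libraries lay in depth between 0.812 and 1.32 times the first sham mouse as estimated from low values, and the FPKM of a mouse summed to between 542418 and 600467. The 72 h libraries were among the deepest, at 1.3, 1.32 and 1.25, and had the lowest FPKM sums. The labelled tissue carried its defining markers in every mouse, since the 10 cardiomyocyte markers summed to between 68300 and 72400 FPKM in sham mice and to between 23200 and 30000 at 72 h. At 6 h, mouse 1 stood apart in neutrophil markers, whose sum was 1000 FPKM against 117 and 377 in the other mice of that time, and at 24 h mouse 3 did so with 968 against 210 and 43. A difference was called where limma on log2(FPKM + 1) gave a Benjamini-Hochberg adjusted p under 0.05 over all genes tested. The log2 fold changes of single genes below are differences on that scale, which understates the change of low genes. Where ± follows such a value, it gives the standard error (SE). Each sample was a mouse of its own, so the tests measure the spread between 3 animals a group.

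Of the 8 genes, 7 passed the filter of at least 1 FPKM in at least 1 mouse and were tested, and Agtr2 did not pass. Against sham, none of the 7 was called at 10 min and none at 1 h by limma, where 0.346% and 0.722% of all genes tested were called, and 1 and 2 of them respectively had an unadjusted p under 0.05. At 6 h, Agt, Ace, Edn1 and Ednrb rose and Agtr1a fell, which made 5 of 7 called against 28.3% of all genes. At 24 h, Agt and Ace were higher and Agtr1a lower, 3 of 7 against 37.6% of all genes. At 72 h, Ace, Edn1 and Ednrb were higher and Agt, Agtr1a and Ednra lower, 6 of 7 against a background of 77.3%, a share near that of the whole table. Of all genes, 0.248% were called higher and 0.0978% lower at 10 min, and 0.669% higher and 0.0526% lower at 1 h. At 6 h these shares were 11.6% and 16.8%, at 24 h they were 26.2% and 11.4%, and at 72 h 53.1% and 24.2%. The median of the 7 log2 fold changes was 0.53, 0.40 and -0.05 at 6, 24 and 72 h, beside -0.08, 0.13 and 0.29 for the whole table.

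How far the groups stood apart can also be counted without a fit. At 10 min 1 of the 7 genes had all mice above all sham mice, where 12.2% of all genes lay so and 8.15% lay wholly below. At 1 h it was 2 genes above, with 7.41% of all genes above and 10.9% below. At 6 h 6 genes lay above and 1 below, so that none of the 7 overlapped the sham mice, against 18.6% of all genes above and 30.2% below. At 24 h 5 lay above and 1 below (39.3% and 18.9% of all genes), and at 72 h 3 above and 3 below (55.1% and 25.4%). Another rule asked for a ratio of mean FPKM over 2, in either direction, with an unadjusted p under 0.05. It chose Agt and Ednrb as higher at 6 h, where it chose 6.76% of all genes as higher and 3.52% as lower. It chose Agt and Edn1 as higher at 24 h (11.7% higher and 2.81% lower of all genes), and Edn1 as higher and Agtr1a as lower at 72 h (26.5% and 8.44%). It chose none of the members at 10 min (0.684% and 0.526%) or 1 h (1.12% and 0.429%).

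Neighbouring times were also set against each other. From 1 h to 6 h Agt and Ednrb rose and Agtr1a fell, 2 higher and 1 lower of 7, where 20.5% of all genes were called, 9.32% higher and 11.2% lower. In that step 4 members lay wholly above and 1 wholly below the earlier mice, against 17.8% and 25.5% of all genes. From 6 h to 24 h none of the 7 was called by limma, 1 of them had an unadjusted p under 0.05, and 14.4% of all genes were called, 12.5% higher and 1.94% lower. None lay wholly above and 1 wholly below, against 36.2% and 7% of all genes. From 24 h to 72 h Agt, Agtr1a and Ednra fell and none rose, where 43.2% of all genes were called, 29.7% higher and 13.5% lower. There 1 member lay wholly above and 3 wholly below, against 37.3% and 19.1% of all genes. By the rule of a ratio over 2, Agt and Ednrb were higher from 1 h to 6 h (5.89% of all genes higher and 2.75% lower), Agt was lower from 6 h to 24 h (6.97% and 1.51%) and Agt was lower from 24 h to 72 h (15.5% and 3.26%).

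**Figure D1:**
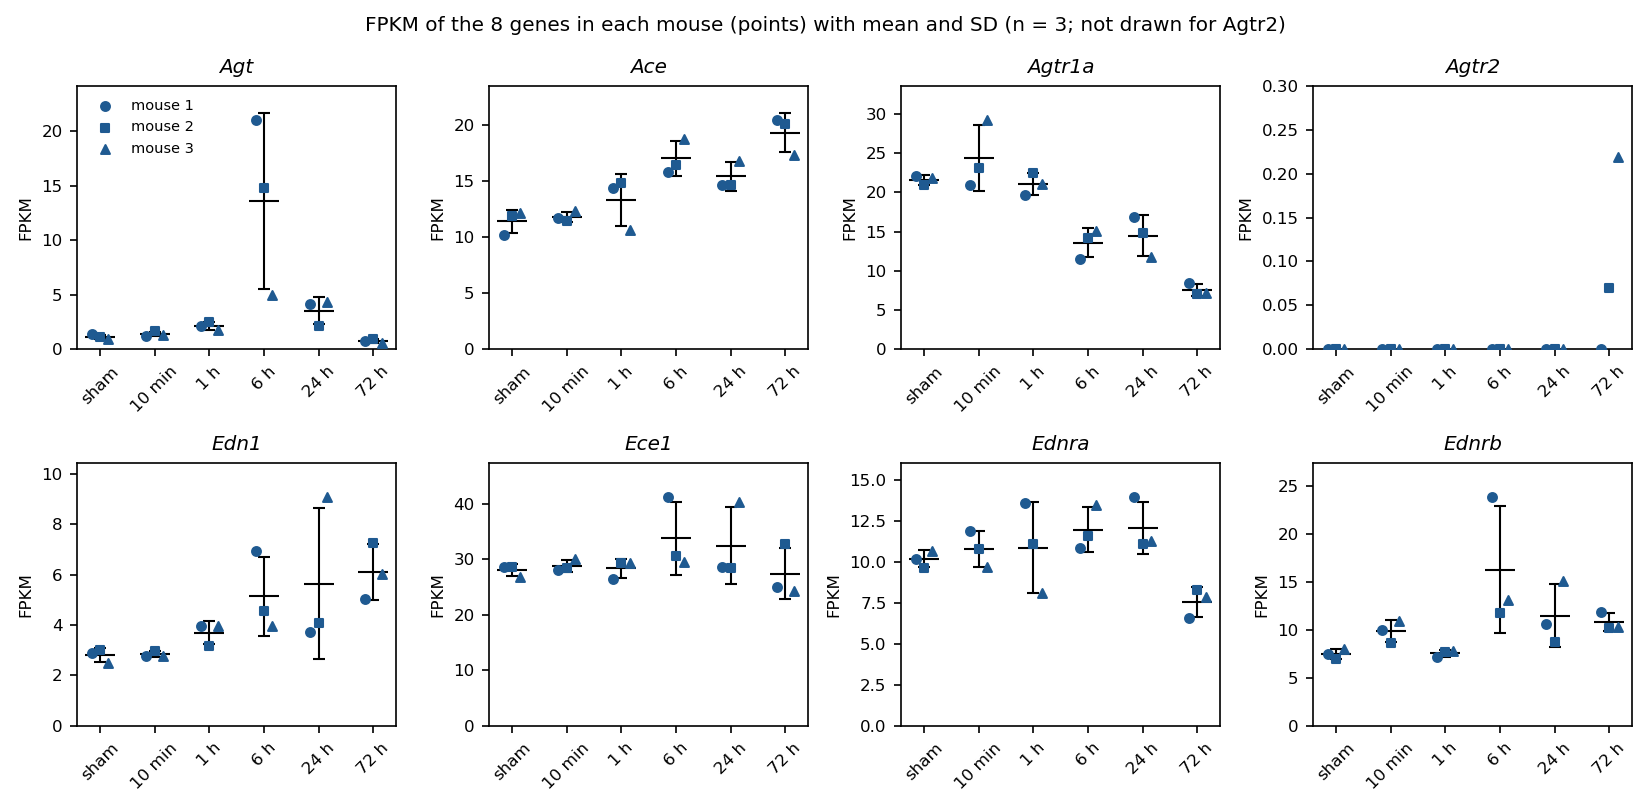
FPKM (y axis, linear from 0, a scale of its own in each panel) of the 8 genes in each of the 18 mice, by group (x axis), with points for mice and, except for Agtr2, bars for the mean and SD of 3 mice. In Agt all 3 mice killed at 6 h lay above every mouse of the other groups. Agtr1a was lowest in the 72 h mice, between 7.01 and 8.46 FPKM, and Agtr2 was above 0 in 2 of the 72 h mice only.

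Agt, the precursor of the angiotensin peptides, made the largest change of the 8 genes, a 12-fold rise in mean FPKM at 6 h that had gone by 72 h. Its level was 1.35, 1.08 and 0.975 FPKM in the sham mice, 1.25, 1.63 and 1.33 after 10 min, 2.15, 2.46 and 1.78 after 1 h, 21.0, 14.8 and 4.99 after 6 h, 4.14, 2.16 and 4.37 after 24 h, and 0.753, 0.923 and 0.572 after 72 h. Every mouse at 1 h, 6 h and 24 h lay above every sham mouse, and every mouse at 72 h lay below. The mice at 6 h were the most spread of any group, and the lowest of them still stood above the highest mouse of any other time. In the order of the means, 24 h and 1 h overlapped, as did 10 min and sham, and the other neighbours stood apart.

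The log2 fold change of Agt was 0.55 ± 0.11 (SE) after 1 h, with an adjusted p of 0.0976 by limma that did not pass the threshold. It was 2.59 ± 0.43 at 6 h (adjusted p = 0.00615, limma) and 1.06 ± 0.21 at 24 h (adjusted p = 0.0122). Set directly against 1 h, Agt at 6 h was higher by 2.04 ± 0.43 (adjusted p = 0.0187), although leaving out any mouse of 1 h moved that value to between 0.0577 and 0.0628. From 24 h to 72 h it fell by 1.35 on the log2 scale (adjusted p = 0.00238). The difference between 72 h and sham was small, -0.29 ± 0.11 (adjusted p = 0.0394), and it was not called when sham mouse 1 (0.143), sham mouse 2 (0.0714), 72 h mouse 1 (0.0696) or 72 h mouse 3 (0.124) was left out. Nor was it called with the same FPKM sum in each mouse (0.0696) or with all 18 mice in one fit (0.436), while quantile normalization gave -0.85 and median-of-ratios scaling -0.42. At 24 h the call was lost only without sham mouse 2, by a narrow margin (0.0505). In sham hearts Agt was among the low genes, at percentile 15.9 of the genes tested.

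Ace, the converting enzyme, was higher than in sham mice at 6, 24 and 72 h. Its level was 10.2, 11.9 and 12.1 FPKM in sham mice, 11.7, 11.4 and 12.3 after 10 min, 14.4, 14.8 and 10.6 after 1 h, 15.8, 16.4 and 18.7 after 6 h, 14.6, 14.6 and 16.8 after 24 h, and 20.4, 20.1 and 17.3 after 72 h. From 6 h on, every mouse lay above the sham mice. The log2 fold change was 0.53 ± 0.10 after 6 h (adjusted p = 0.0107, limma), 0.40 ± 0.11 after 24 h (adjusted p = 0.0259) and 0.71 ± 0.09 after 72 h (adjusted p = 0.000124). The call at 24 h was lost under median-of-ratios scaling and under quantile normalization, with log2 fold changes of 0.26 and 0.21. It was also lost without sham mouse 1, 2 or 3 in turn, with adjusted p-values of 0.102, 0.0745 and 0.0645. Neighbouring levels in the order of the means overlapped between mice at each step of the series, and none of the direct steps was called, the one from 24 h to 72 h giving 0.31 ± 0.11 (adjusted p = 0.0574).

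Agtr1a, the main receptor of angiotensin II in the mouse heart, fell at 6 h and again between 24 h and 72 h, to a ratio of 0.35 of the sham mean. Its level was 22.1, 20.9 and 21.9 FPKM in sham mice, 21.0, 23.1 and 29.2 after 10 min, 19.7, 22.5 and 21.1 after 1 h, 11.5, 14.2 and 15.1 after 6 h, 16.9, 14.8 and 11.8 after 24 h, and 8.46, 7.01 and 7.21 after 72 h. The mice at 6 h and 24 h overlapped each other, lay below all earlier mice and above all mice at 72 h. The log2 fold change was -0.64 ± 0.11 after 6 h (adjusted p = 0.00658, limma), -0.56 ± 0.13 after 24 h (adjusted p = 0.0185) and -1.41 ± 0.08 after 72 h (adjusted p = 8.75e-07). The direct steps were -0.61 from 1 h to 6 h (adjusted p = 0.0142), 0.08 from 6 h to 24 h (adjusted p = 0.744) and -0.85 from 24 h to 72 h (adjusted p = 0.00348). Without sham mouse 1, 2 or 3 the adjusted p at 24 h was 0.0734, 0.0622 and 0.0668, and the step from 1 h to 6 h was not called without 1 h mouse 2 (0.0689) or 3 (0.0524).

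Agtr2, the second angiotensin II receptor, was listed at 0 FPKM in 16 mice. The exceptions were at 72 h, with 0.0696 FPKM in mouse 2 and 0.219 in mouse 3, while mouse 1 was at 0. These levels lie under the filter, and no test was made. The table gives no read counts, so how many reads stand behind them is unknown. The 72 h libraries were also among the deepest, and the part of depth in these values was not tested.

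Edn1, the endothelin-1 precursor, rose from 6 h on, to a ratio of 2.18 of the sham mean at 72 h. Its level was 2.90, 3.01 and 2.49 FPKM in sham mice, 2.77, 2.97 and 2.77 after 10 min, 3.97, 3.15 and 3.97 after 1 h, 6.93, 4.55 and 3.97 after 6 h, 3.73, 4.08 and 9.09 after 24 h, and 5.03, 7.27 and 6.01 after 72 h. All mice from 1 h on lay above the sham mice, and the mice of 6 h, 24 h and 72 h overlapped each other. The log2 fold change was 0.67 ± 0.18 after 6 h (adjusted p = 0.0304, limma), 0.72 ± 0.28 after 24 h (adjusted p = 0.0807) and 0.89 ± 0.12 after 72 h (adjusted p = 0.000173). The mean at 24 h rested largely on mouse 3, and the call at 6 h was lost without sham mouse 1 (0.0852), 2 (0.0761) or 3 (0.105) and with no filter on low values (0.0585).

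Ece1, the endothelin-converting enzyme, was the highest of the 8 genes in sham hearts and the only tested one never called. Its level was 28.6, 28.7 and 26.9 FPKM in sham mice, 28.1, 28.4 and 30.0 after 10 min, 26.4, 29.3 and 29.4 after 1 h, 41.3, 30.7 and 29.5 after 6 h, 28.6, 28.4 and 40.4 after 24 h, and 25.1, 32.7 and 24.3 after 72 h. The highest values, in 6 h mouse 1 and 24 h mouse 3, belonged to the mice with the most neutrophil marker signal. The log2 fold changes against sham ranged from -0.05 ± 0.11 at 72 h to 0.25 ± 0.13 at 6 h, the latter with an adjusted p of 0.187 by limma. All neighbours in the order of the means overlapped between mice.

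Ednra, the constricting endothelin receptor, was lower at 72 h, at a ratio of 0.745 of the sham mean. Its level was 10.2, 9.67 and 10.7 FPKM in sham mice, 11.9, 10.8 and 9.70 after 10 min, 13.6, 11.1 and 8.10 after 1 h, 10.9, 11.6 and 13.5 after 6 h, 14, 11.1 and 11.3 after 24 h, and 6.56, 8.32 and 7.86 after 72 h. All mice at 6 h and 24 h lay above the sham mice, without passing the test (adjusted p = 0.145 and 0.142, limma), and all mice at 72 h lay below. The log2 fold change at 72 h was -0.39 ± 0.09 (adjusted p = 0.0048), and the step from 24 h to 72 h was -0.61 ± 0.13 (adjusted p = 0.00845).

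Ednrb, the endothelial and clearing receptor, rose at 6 h to a ratio of 2.17 of the sham mean. Its level was 7.50, 6.96 and 8.01 FPKM in sham mice, 10.0, 8.64 and 10.9 after 10 min, 7.13, 7.72 and 7.80 after 1 h, 23.9, 11.8 and 13.1 after 6 h, 10.6, 8.70 and 15.1 after 24 h, and 11.9, 10.2 and 10.3 after 72 h. The mice at 10 min, 6 h, 24 h and 72 h all lay above the sham mice, and those at 1 h overlapped them. The log2 fold change was 0.35 ± 0.10 after 10 min (unadjusted p = 0.00727, adjusted p = 0.185, limma), 0.96 ± 0.24 after 6 h (adjusted p = 0.0235), 0.53 ± 0.19 after 24 h (adjusted p = 0.0602) and 0.47 ± 0.09 after 72 h (adjusted p = 0.000915). The rise from 1 h to 6 h, 0.95 ± 0.24, was called directly (adjusted p = 0.0303).

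The calls for Ednrb were lost under more of the alternatives than the call for Agtr1a at 72 h, which was kept under each. Without 6 h mouse 1, the highest in Ednrb, the call at 6 h was kept, at 0.66 (adjusted p = 0.00618, limma). With any mouse left out, the call at 72 h was kept too. At 72 h the log2 fold change dropped to 0.19 (adjusted p = 0.0758) under median-of-ratios scaling and to 0.05 (adjusted p = 0.578) under quantile normalization. At 6 h the adjusted p was 0.0739, 0.0797 and 0.0654 without sham mouse 1, 2 or 3, and for the step from 1 h to 6 h it was 0.0914, 0.0919 and 0.0804 without 1 h mouse 1, 2 or 3. These scalings moved the median over the whole table at 72 h from 0.29 to 0.04 and -0.12, while the corresponding values of Ednrb were 0.47, 0.19 and 0.05, so that Ednrb stood above that median under each scaling. Under quantile normalization other members also moved at 72 h, Ace from 0.71 to 0.35, Edn1 from 0.89 to 0.38 and Ednra from -0.39 to -0.82, and these kept their calls. Of all genes called at 72 h, 68.7% were higher on the deposited scale, 52.5% under median-of-ratios scaling and 42.5% under quantile normalization. The same shares were 69.8%, 52.2% and 43.6% a day after ligation. For 6 h, 40.9% were higher on the deposited scale, 56.6% under median-of-ratios scaling and 43.3% under quantile normalization.

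**Figure D2:**
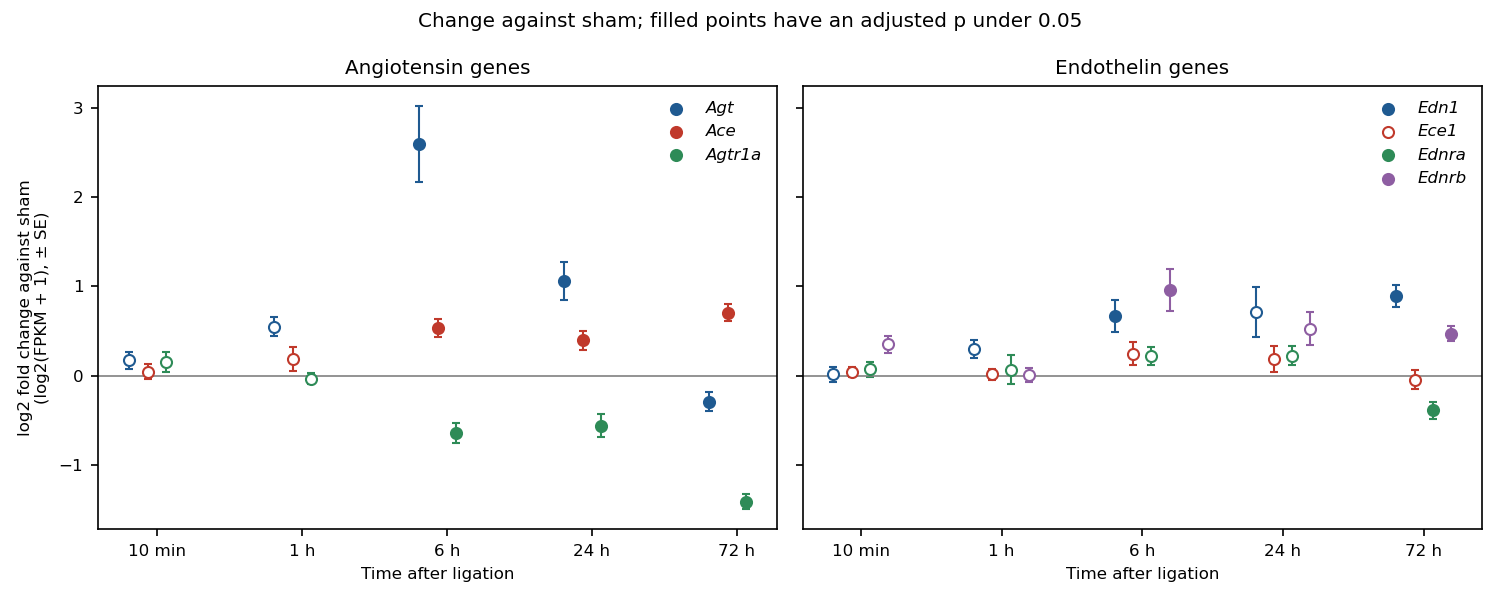
Log2 fold change of FPKM + 1 against sham (y axis) of the 7 tested genes at each time after ligation (x axis), with bars for the standard error and filled points where the adjusted p was under 0.05. Agt reached 2.59 at 6 h, Agtr1a fell to -1.41 at 72 h, and Ece1 had no filled point.

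The members can also be set against each other within a mouse. The ratio of Ednra to Ednrb, the constricting against the clearing endothelin receptor, was between 1.34 and 1.39 in sham mice and below that range in every mouse at 10 min, 6 h, 24 h and 72 h. It ranged from 0.887 to 1.25 after 10 min, 1.04 to 1.91 after 1 h, 0.458 to 1.03 after 6 h, 0.745 to 1.31 after 24 h and 0.553 to 0.812 after 72 h. The log2 difference from sham was -0.31, 0.06, -0.81, -0.33 and -0.96 for these 5 times in turn. Single mice carried much of it: without 10 min mouse 3 the difference was -0.16, without 6 h mouse 1 it was -0.43, without 24 h mouse 3 it was -0.07, and at 1 h it turned to -0.16 without mouse 1 and was 0.28 without mouse 3. At 72 h it stayed between -1.06 and -0.79 with any mouse left out. An exact two-sided permutation test gave p = 0.1 at each of these times except 1 h, where it gave 0.7, and 0.1 is the smallest p that 3 mice against 3 allow. Adjusted over the 10 ratio tests, the value of 0.1 became 0.2.

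The ratio of Ace to Ece1, the converting enzymes, was between 0.358 and 0.452 in sham mice and between 0.614 and 0.814 at 72 h. Every mouse at 72 h lay above the sham mice, a log2 difference of 0.80 (exact permutation p = 0.1, adjusted 0.2). At the other times the mice overlapped the sham range, with log2 differences from 0.01 at 10 min to 0.32 at 6 h.

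**Figure D3:**
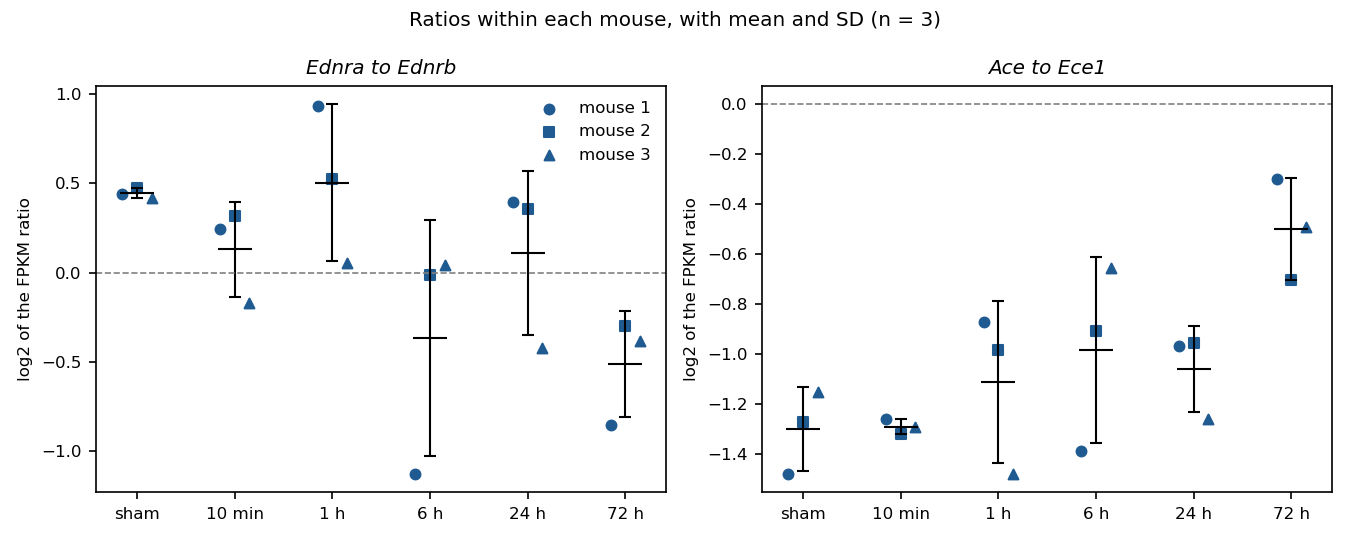
Log2 of the FPKM ratio within each mouse (y axis) of Ednra to Ednrb (left) and of Ace to Ece1 (right) by group (x axis), with points for mice, bars for the mean and SD of 3 mice and a dashed line at equal levels. Ednra exceeded Ednrb in all sham mice and was below it in all mice at 72 h, and Ace was below Ece1 in every mouse.

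In 1 mouse at 6 h and 1 mouse at 24 h, extreme values of several members fell together with those of cell type markers. At 6 h, mouse 1 had the highest Agt, Edn1, Ece1 and Ednrb and the lowest Agtr1a, Ednra and Ace of its group, and at 24 h mouse 3 had the highest Edn1, Ece1, Ednrb, Ace and Agt and the lowest Agtr1a. The same mice had the lowest cardiomyocyte marker sums, 56900 FPKM against 68300 and 62100 at 6 h, and 42200 against 54200 and 53100 at 24 h. They also had the highest sums of the 10 endothelial markers, 985 against 823 and 811, and 875 against 687 and 801. The remaining mice did not keep this order throughout. In neutrophil markers 6 h mouse 2 was below mouse 3, at 117 against 377 FPKM. Its Agt and Edn1 were higher, at 14.8 against 4.99 and 4.55 against 3.97 FPKM, and its Ednrb was lower, at 11.8 against 13.1. The part of these cell types in the levels of the 8 genes was not tested.

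Against the sham mean, the cardiomyocyte markers stood at 88.7%, 70.8% and 36.5% after 6, 24 and 72 h, and 10 of 10 were called lower at 72 h. At 6 h 2 of 10 were called lower. Agtr1a stood at ratios of 0.629, 0.671 and 0.35 of sham at these times. The 8 pericyte markers stood at 75.5%, 69.3% and 62.7%, with 5 of 8 lower and 1 higher at 72 h. Abcc9 made the largest part of their sham sum, at 162 FPKM, and stood at 111, 81.9 and 44.9 at these times. Pdgfrb was at 41.7 FPKM in sham mice and at 37.5, 44.7 and 59.6 at these times. The mean of Ednra stood at 12, 12.1 and 7.58 FPKM against 10.2 in sham mice. Endothelial markers, the cells where Ednrb, Edn1 and Ace are known to be expressed, stood at 109%, 98.8% and 84.2%, with 5 of 10 lower and none higher at 72 h. Smooth muscle markers stood at 128%, 168% and 142%, fibroblast markers at 89.1%, 83.8% and 618%, and macrophage markers at 122%, 204% and 1060%. Of the 8 smooth muscle markers, 1 was higher and 3 lower at 6 h, 1 higher and 2 lower at 24 h, and 3 higher and 2 lower at 72 h. Des made the largest part of their sum, at 666 FPKM in sham mice and 976, 1290 and 621 at these times. Myh11 went from 18.4 FPKM in sham to 11.3, 10.4 and 7.36. Of the 10 fibroblast markers, 1 was higher and 4 lower at 6 h, and 4 higher and 3 lower at 24 h. At 72 h 9 of them were higher and 1 lower. Gsn, the largest of them in sham, went from 263 to 125 FPKM at 24 h, and Col1a1 from 16.3 to 39.1. Of the 9 macrophage markers, 4 were higher and 1 lower at 6 h, 7 were higher at 24 h and 9 at 72 h. Cd14 went from a mean of 4.9 FPKM in sham to 53.4 at 6 h, between 15.8 and 110 among the mice. Csf1r went from 45.3 to 32.9 FPKM at 6 h. The 7 neutrophil markers in the table were between 2.32 and 5 FPKM in sum in sham mice, between 117 and 1000 after 6 h, between 43 and 968 after 24 h and between 51.8 and 62.2 after 72 h. What share of each gene's change followed these cells was not tested.

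**Figure D4:**
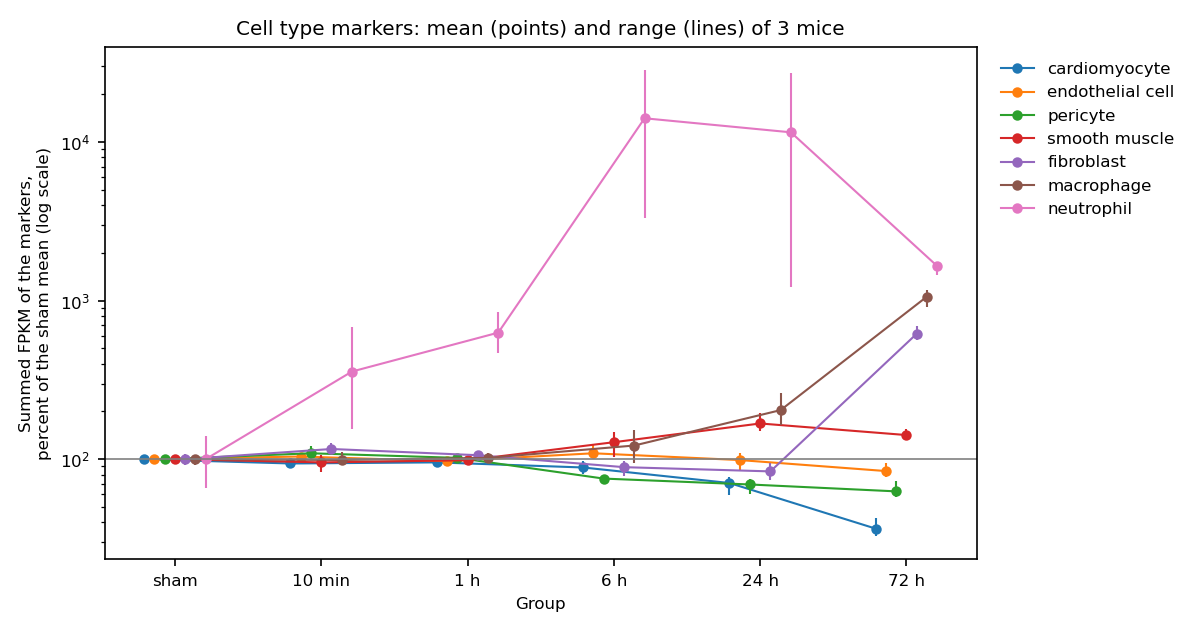
Summed FPKM of fixed marker lists as percent of the sham mean (y axis, log scale) by group (x axis), with points for the mean and vertical lines for the range of 3 mice, in a colour for each cell type. Cardiomyocyte markers fell to between 32.9% and 42.6% at 72 h, while neutrophil sums spread widely among the mice of 6 h and of 24 h.

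Genes around the members were counted in 5 lists against the same shares of all genes called, 28.3% at 6 h, 37.6% at 24 h and 77.3% at 72 h. At 72 h the median log2 fold change was 0.29 over the whole table, and it was 0.30 in the other angiotensin genes, 0.20 in the other endothelin genes, 0.27 in the genes of receptor coupling, 2.46 in the response genes and -0.18 in the vasodilator counterparts. The share of called genes at 72 h in the angiotensin, endothelin and coupling lists was near that of the whole table.

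Of 27 other genes of the angiotensin pathway, 16 were tested. In these, 1 was higher at 10 min and none was called at 1 h, then 7 were lower and none higher at 6 h. A day after ligation 6 were higher and 4 lower, and at 72 h 7 were higher and 5 lower. The largest changes at 72 h were in genes of peptide breakdown and of the renin receptor. Anpep, an aminopeptidase that trims angiotensin III, went from a mean of 3.08 to 23.3 FPKM (log2 fold change 2.57, adjusted p = 9.81e-08, limma). Prcp, a carboxypeptidase that can turn angiotensin II into angiotensin-(1-7), went from 4.25 to 26.2 FPKM (2.37). Atp6ap2, the prorenin receptor and a part of the vacuolar proton pump, went from 5.27 to 18.5 FPKM (1.64).

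Renin itself, Ren1, and Agtr1b, the other mouse gene of the type 1 angiotensin receptor, were listed at 0 in all 18 mice. Mas1, the receptor of angiotensin-(1-7), lay between 0.0538 and 0.25 FPKM. The mast cell chymases Cma1 and Mcpt4, which can form angiotensin II without Ace, stayed between 0.225 and 1.79 FPKM and were not called at any time. Agtrap, which promotes internalization of the angiotensin II receptor, went from 47.2 FPKM in sham to 32.3 at 6 h (-0.54, adjusted p = 0.00676) and 34.0 at 24 h (-0.46, adjusted p = 0.0161). Picked after its values were seen, Nr3c2, the mineralocorticoid receptor on which aldosterone acts, was at 5.23 FPKM in sham and at 1.65, 1.80 and 1.32 at 6 h, 24 h and 72 h, with log2 fold changes of -1.27, -1.17 and -1.42. Also picked in that way, Lnpep, an angiotensin IV binding aminopeptidase, was the 1 gene called at 10 min, with 30.6 against 17.3 FPKM (0.79, adjusted p = 0.0369).

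Of 9 other endothelin pathway genes, 6 were tested, with none called at 10 min and 1 h, 2 higher and 1 lower at 6 h and at 24 h, and 3 higher and 1 lower at 72 h. Furin, which cuts the endothelin precursor ahead of Ece1, stood at 61.3 FPKM in sham mice, 118 at 6 h (a log2 difference of 0.93, adjusted p = 0.00268, limma), and 112 and 107 at the later times. Pcsk6, a related protease, moved the other way, from 29.9 to 14.2, 11.8 and 19.3 FPKM. Edn3, another endothelin, was at 0.483 FPKM in sham and 1.12 at 6 h (0.51, adjusted p = 0.0182), the one time it was called against sham, and Edn2 was at 0 in 12 mice and at most 0.164 FPKM. Ece2, a second converting enzyme, was higher at 72 h, 3.74 against 1.37 FPKM (1.00, adjusted p = 2.3e-05).

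Downstream of the receptors, 32 of 34 genes of G protein coupling, calcium and calcineurin signalling were tested. Of these, 1 was higher at 10 min, none was called at 1 h, 6 were higher and 6 lower at 6 h, 7 higher and 5 lower a day after ligation, and 17 higher and 8 lower at 72 h. Arrb2, an arrestin that ends receptor signalling and is abundant in leukocytes, stood at 13.3 FPKM in sham and 82.8 at 72 h (a log2 difference of 2.55), and Prkcd, a protein kinase C, at 2.75 and 17.5 FPKM (2.30). Rcan1, a calcineurin target and inhibitor, stood at 14.4 FPKM in sham and at 75.8, 52.5 and 41.4 at 6 h, 24 h and 72 h. Rgs2, which limits Gq signalling from both receptor families, was the 1 gene of this list called at 10 min, at 83.9 against 46.7 FPKM (0.84, adjusted p = 0.0369, limma). It was at 105 FPKM at 1 h, where all mice lay above sham without a call (adjusted p = 0.0976), at 49 and 62.2 FPKM at 6 and 24 h, and higher at 72 h, at 86.9 FPKM (0.89, adjusted p = 4.59e-05). Rgs5, a pericyte gene, fell from 96.2 to 53.7 FPKM at 24 h and 63.7 at 72 h.

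All 13 genes commonly induced by angiotensin II or endothelin-1 were tested, with 3 higher at 1 h, 6 higher and 1 lower at 6 h, 12 higher at 24 h and 13 higher at 72 h. The largest at 72 h were Spp1, an osteopontin gene of macrophages and fibroblasts, with a mean of 312 FPKM and a log2 fold change of 8.23, Postn (663 against 7.09 FPKM) and Timp1 (61.6 against 0.431 FPKM). These genes answer to many other signals. Of 15 vasodilator counterparts in the table, 14 were tested, with none called at 10 min and 1 h, 2 higher and 4 lower at 6 h, 1 higher and 5 lower a day after ligation, and 5 higher and 7 lower at 72 h. Ptgis, the prostacyclin synthase, went from 8.39 to 29.9 FPKM at 72 h (1.72), Ramp3, an adrenomedullin co-receptor, from 10.9 to 4.01 FPKM (-1.30), and Npr2, the C-type natriuretic peptide receptor, from 51.3 to 32.6 FPKM (-0.64). Nos3, the endothelial nitric oxide synthase that Ednrb activates, was at 51.8 FPKM in sham, 67.4 at 6 h (adjusted p = 0.13), 71.4 at 24 h (adjusted p = 0.121) and 41.0 at 72 h (-0.34, adjusted p = 0.0093).

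**Figure D5:**
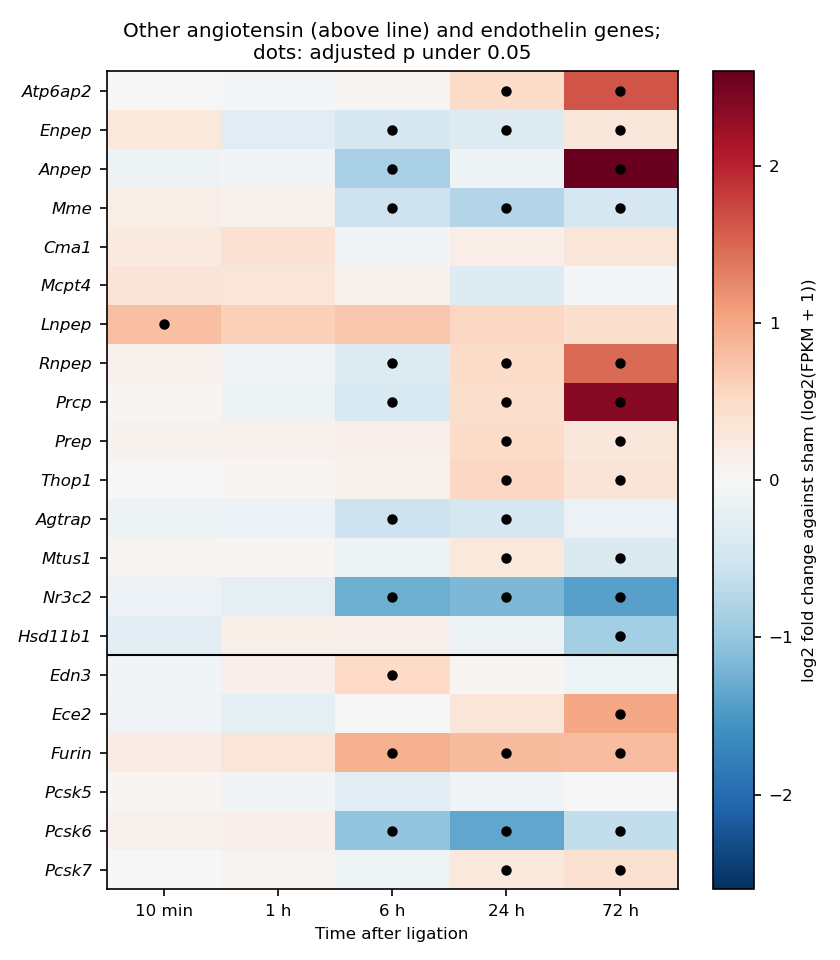
Log2 fold change of FPKM + 1 against sham (colour, red higher and blue lower) of tested genes of the angiotensin list (rows above the line) and the endothelin list (rows below it) at the 5 times after ligation (columns), with a dot where the adjusted p was under 0.05. Anpep, Prcp and Atp6ap2 were highest at 72 h, at 2.57, 2.37 and 1.64.

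The 7 tested genes did not share one course over the 18 mice. Across mice, Pearson's r of log2(FPKM + 1) was -0.83 between Ace and Agtr1a, -0.84 between Agtr1a and Edn1, 0.71 between Ace and Edn1, 0.69 between Ece1 and Ednrb, 0.68 between Agt and Ednrb, and 0.05 between the endothelin receptors. These values describe mice that share their time groups and are given without a test. The genes whose course was most like Agt were Xirp1 (r = 0.972), Abra (0.946) and Arc (0.946), those most like Agtr1a were Ppm1k (0.986), Rdh14 (0.976) and Bzw2 (0.973), and those most like Ace were Hpcal1 (0.942), Ucp2 (0.911) and Mnda (0.909). For Edn1 they were Inhba (0.941), Btg1 (0.941) and H3f3b (0.938), for Ece1 Mast4 (0.891), Chd7 (0.855) and Dusp16 (0.85), and for Ednrb Rabgef1 (0.927), Adamts9 (0.922) and Hdc (0.92), all over 18 mice. Among the genes most like Ednra were Phka1 (0.883) and Ppp1cb (0.856).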

How the data were processed

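Per the paper's methods and the labels, the authors trimmed paired-end reads with cutadapt 1.18, mapped them to mm10 with HISAT2 2.1.0 and quantified genes as FPKM with StringTie 1.3.4d; the annotation is not given in the sources used here. The deposited FPKM of 18 mice were used as they stand, without counts, and their depth is known only relatively. No count test was possible. Each mouse's column was matched to its group by name, and 25 symbols that spreadsheet software had turned into dates were left unmatched.

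Genes with at least 1 FPKM in at least 1 mouse (13333 of 24419) were tested with limma 3.58.1 (R 4.3.3) on log2(FPKM + 1), with a variance trend, each comparison on its own 6 mice, two-sided, and Benjamini-Hochberg adjustment over all genes tested. The 8 comparisons were the 5 times against sham and 6 h against 1 h, 24 h against 6 h and 72 h against 24 h. The 2 ratios were tested by exact permutation (scipy 1.17.1). The script was tested on simulated data drawn for 13333 genes at 3 against 3, where it recovered 189 of 200 genes changed 2-fold and 200 of 200 changed 4-fold, with 4 and 13 false calls. The changed genes were drawn from those above 5 FPKM in sham mice, and both groups were given the spread of the sham mice. Recovery was therefore not measured for lower genes, such as Agt and Edn1 at 1.14 and 2.8 FPKM in sham. Nor was it measured for groups with more spread.

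Named were all 8 genes, the 3 called genes with the largest change of each of 5 pathway lists at the time with most calls, 14 further fixed genes, and the 3 genes most correlated with each tested member among genes with a mean of at least 1 FPKM, predicted genes left out. Some of the genes this rule names are not reported here. The members and lists were chosen with earlier results of these data known. Alternatives were a pseudocount of 0.1, other filters, scalings and fits, the study's thresholds on limma's unadjusted p and on the ratio, a replicate block and leaving out each mouse.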

Additional observations from a re-analysis of the deposited data

Results flagged for a closer look

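Differences between neighbouring times after ligation, tested directly by limma, passed the threshold for 4 genes. From 1 h to 6 h, Agt changed by 2.04, Agtr1a by -0.61 and Ednrb by 0.95 on the log2 scale, with 2 of 7 genes higher and 1 lower against 20.5% of all genes called. From 24 h to 72 h, Agt changed by -1.35, Agtr1a by -0.85 and Ednra by -0.61, with 3 of 7 lower against 43.2% of all genes called in either direction and 13.5% called lower. In each of these 6 differences all 3 mice of the later time lay on one side of all 3 mice of the earlier time. Between 6 h and 24 h none of the 7 was called by limma, 1 had an unadjusted p under 0.05 and 14.4% of all genes were called.

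Agtr2 stood outside the tests because of its low level. It was listed above 0 in 72 h mouse 2 (0.0696 FPKM) and 72 h mouse 3 (0.219 FPKM) and at 0 in all 3 sham mice. Those 72 h libraries were among the deepest.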

How the results depend on the processing

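Of 20 calls for single genes under 15 alternatives of the fit, scaling, filter or mice each, 267 of 300 were kept, 33 were lost and 0 were reversed. Of the lost calls 25 came from leaving out a mouse, which also leaves fewer samples. Under all of these 15 alternatives, which leave out the call rule given below, 10 calls were kept. Among them were Agt at 6 h, Agtr1a at 6 h and 72 h, and Ace, Edn1 and Ednra at 72 h. With a mouse left out, the counts ranged as follows: at 6 h from 2 to 4 genes higher (reported: 4), at 24 h from 0 to 3 higher (reported: 2) and from 0 to 1 lower (1), at 6 h against 1 h from 0 to 2 higher (2) and from 0 to 1 lower (1), and at 72 h against 24 h from 0 to 2 higher (0). Under median-of-ratios scaling and quantile normalization 1 gene was higher at 24 h in place of 2, and with all 18 mice in one fit it was 4. Without a filter 1 gene was higher at 6 h against 1 h in place of 2. At 72 h against 24 h, 1 gene became higher with the same FPKM sum in each mouse and with all 18 mice in one fit, and at 24 h against 6 h 1 became lower with all 18 mice in one fit. A call rule with the thresholds of the study, applied here to limma's p, asked for an unadjusted p under 0.05 and a ratio over 2. It gave 2 higher and 0 lower at 6 h, 0 lower at 24 h, 1 higher and 1 lower at 72 h, 0 lower at 6 h against 1 h, 1 lower at 24 h against 6 h and 1 lower at 72 h against 24 h. The cause of these moves was not tested.

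Replicate numbers name separate animals and were not taken as pairs, since the correlations of same-numbered mice ranged from -0.327 to 0.415 over the comparisons. With the replicate number as a block, 4 genes were higher and 1 lower at 6 h, 3 higher and 1 lower at 24 h, and 3 higher and 3 lower at 72 h, and no single-gene call was lost. The ratio differences kept their values under the block by construction, with an exact p of at least 0.25. The splits of calls between higher and lower moved with the scaling also at 24 h against 6 h, from 86.6% higher to 52.3% and 57.8%, and at 72 h against 24 h, from 68.8% to 53.4% and 44.8%, under median-of-ratios scaling and quantile normalization.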
